A study of Mus musculus with 17 samples.

Results

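The genes that encode the chains of the collagens were followed in mouse mammary tumours and in normal mammary tissue. They were all genes with a probe set of a single symbol made of Col, a number, the letter a and a number, apart from 1 gene left out by name. The rule gave 43 genes of the 19938 measured. By the kind of collagen their chains form, 11 were fibrillar, 6 belonged to the basement membrane type, 9 to the fibril-associated type with interrupted triple helices (FACIT) and 17 to other types. Values are log2 intensities after robust multi-array averaging (RMA), and a difference of 1 on this scale is a doubling.

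Collagens are trimers of such chains. Fibrillar chains build the tensile fibrils of connective tissue, FACIT chains sit on the surface of those fibrils, and the chains of type IV form the meshwork of basement membranes, on which the mammary epithelium and blood vessels rest. In the mammary gland fibroblasts are the main source of fibrillar collagen, while basement membrane chains come from several cell types, among them myoepithelial and endothelial cells.

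Each sample was hybridised to 1 array, and the samples fell into the sets that follow. MMTV-Cre Rb/p53 tumours (n = 7) arose after Cre under the mouse mammary tumour virus promoter removed Rb1 and Trp53. A nulliparous mouse gave replicate 1 and a parous mouse replicate 2, whereas replicates 3 to 7 were labelled as transplants. Ad-Cre Rb/p53 tumours (n = 2) carried the same deletions, made with Ad-CMVcre, and both were labelled as transplants. MMTV-Cre p53 tumours (n = 3) lacked Trp53 alone according to their source, tissue and description, although the title of replicate 3 names the Rb/p53 model. Normal mammary tissue (n = 5) was taken from Rb/p53-model mice, and its labels name no Cre or deletion of its own. Its sample names carry the prefix MCRP, as do those of MMTV-Cre Rb/p53 replicates 1 and 2. Whether Cre had acted in this tissue is not stated. All samples had a mixed strain background, and ages and transplant hosts are not stated by the labels. The tumours were described as independent, but nothing says this of the normal samples, so p-values there measure the spread between samples that may be technical.

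Rb1 lay between 9.29 and 9.92 in the Rb/p53 tumours, against 9.93 to 11.00 in p53 tumours and 10.93 to 11.50 in normal tissue. Trp53 was not analysed here, because no probe set carried its symbol alone. The array of p53 replicate 2 stood apart. Its correlation with the other arrays over all deposited probe sets was 0.888 to 0.915, and its interquartile range over them was 2.39, against 2.91 to 3.18 on the other arrays. It was the highest of the 12 tumours for 20 of the 43 collagen genes (46.5%) and for 35.6% of all genes, so several differences of p53 tumours are also given without it. No collagen value fell below 6.37, the lowest 25th percentile of any array. The lowest was 6.57.

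Markers of other cell types also differed from normal tissue. Over all genes 13.4% were called lower and 14.2% higher in Rb/p53 tumours, and 12.1% lower and 8.34% higher in p53 tumours. Counts near these shares, such as 2 of 10 or 1 of 7 below, say little about a cell type. All 10 adipocyte markers were lower than in normal tissue in both Rb/p53 and p53 tumours. The log2 of their summed level was 10.99 to 12.21 in Rb/p53 tumours and 11.11 to 11.84 in p53 tumours, against 15.79 to 16.26 in normal tissue. Of 10 fibroblast markers 4 were lower and none was higher in either tumour type. Their summed level was 13.09 to 14.54 in Rb/p53 tumours and 12.52 to 13.83 in p53 tumours, against 14.64 to 14.94 in normal tissue. Myoepithelial and basal markers were lower for 9 of 10 in Rb/p53 tumours and for 7 of 10 in p53 tumours, luminal epithelial markers for 7 of 9 in both, endothelial markers for 2 and 6 of 10 and skeletal muscle markers for 7 and 3 of 10. Of 7 lymphocyte markers 5 were lower in Rb/p53 tumours and 1 was higher in p53 tumours. Of 5 Schwann cell markers 3 were lower in each tumour type and 1 was higher in Rb/p53 tumours. Macrophage markers were higher for 4 of 8 in Rb/p53 tumours and for 8 of 8 in p53 tumours. In such bulk samples fewer cells of a type and less RNA per cell cannot be told apart, and the part of these cell types in the collagen results was not tested.

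The first question was how collagen expression in Rb/p53 tumours compares with normal mammary tissue. Col12a1, which codes for a FACIT chain that coats type I collagen fibrils, and Col8a1, a chain of short network-forming collagen of vessel walls, were 6.16-fold and 5.91-fold higher in the tumours. Col14a1, another FACIT chain of fibril surfaces, was 3.74-fold lower and Col15a1, which anchors basement membranes to the connective tissue, 3.24-fold lower. In all, 2 of the 43 genes were higher (4.65%) and 9 lower (20.9%) by limma at an adjusted p under 0.05 over all genes. Among all genes 14.2% were called higher and 13.4% lower. The median log2 difference was -0.05 over the collagen genes and 0.03 over all genes. The other 32 genes gave differences between -0.39 and 1.56, of which 30 lay within 0.5 of 0. Without p53 replicate 2, whose spread enters this fit, 3 genes were called higher and 11 lower.

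The same was asked of p53 tumours, against the same normal samples. Col12a1 was 15.8-fold and Col8a1 4.91-fold higher, Col24a1, a minor fibrillar chain, was 1.42-fold higher, and Col15a1 was 1.87-fold lower. These 3 higher genes (6.98%) and 1 lower gene (2.33%) stood against 8.34% higher and 12.1% lower among all genes. The median log2 difference was 0.09 over the collagen genes and also 0.09 over all genes. The other 39 genes gave differences between -0.99 and 0.55. Without p53 replicate 2 the counts were 4 higher and 2 lower.

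**Figure D1:**
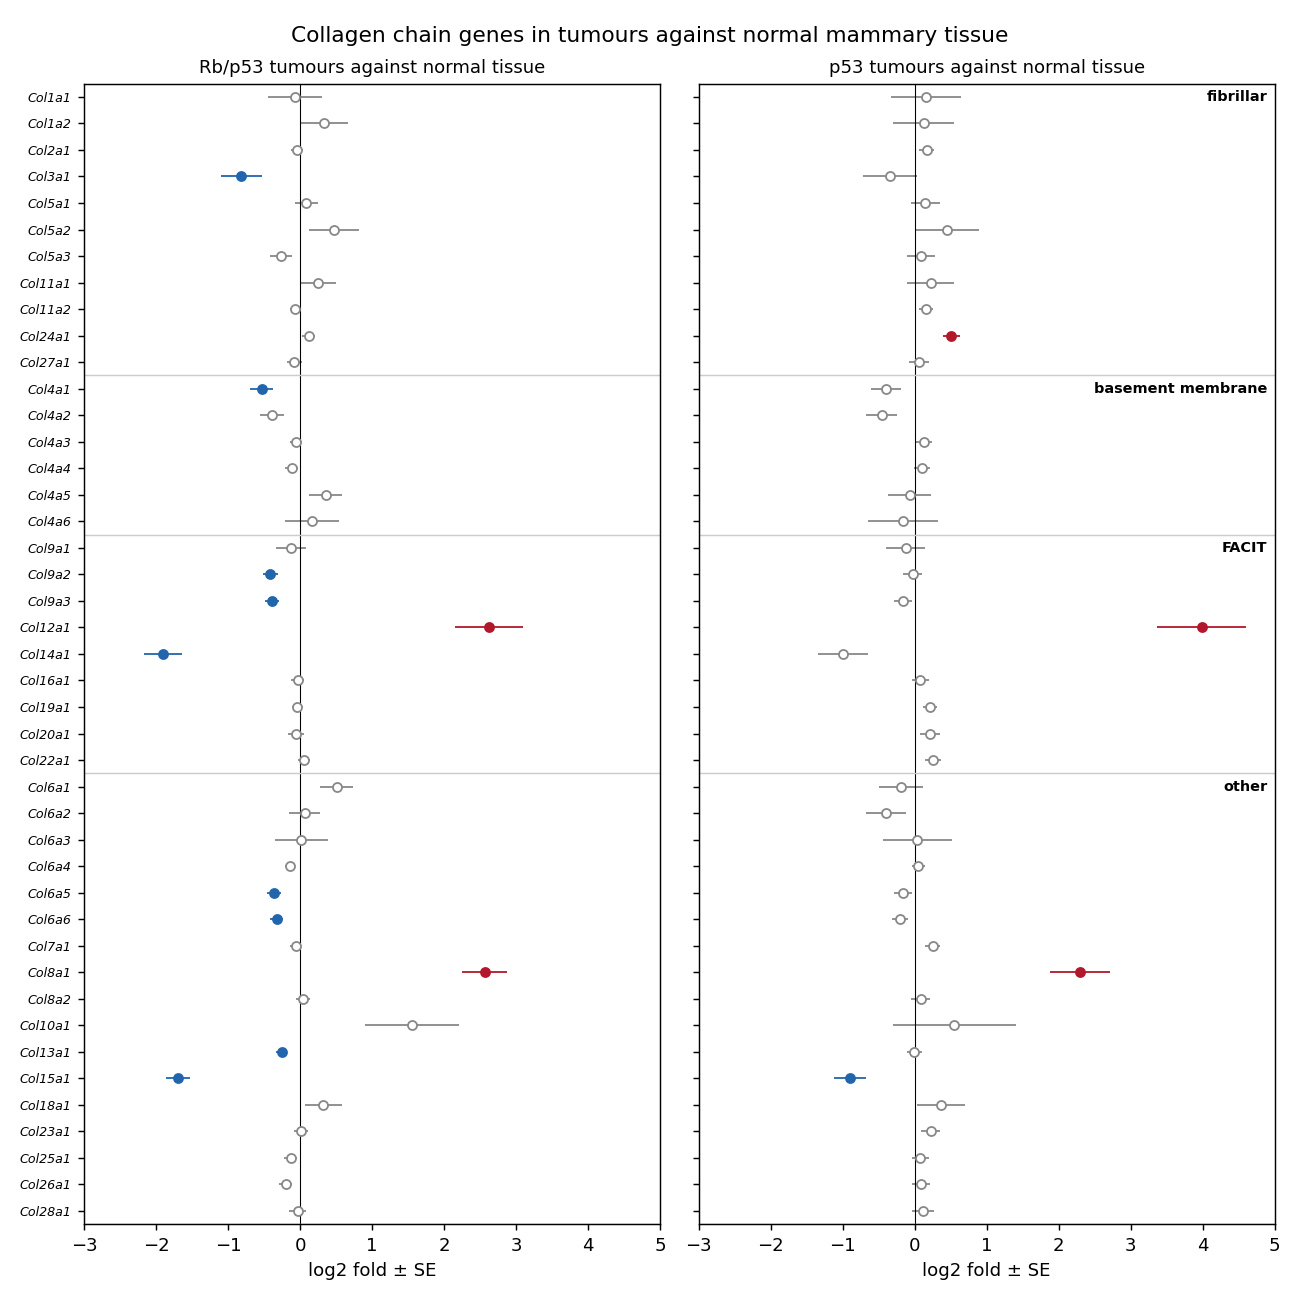
Log2 difference (x axis, ± SE) of each of the 43 collagen genes (y axis, grouped by class) in Rb/p53 tumours (left, n = 9) and p53 tumours (right, n = 3) against the same normal tissue (n = 5). Filled red points were called higher and filled blue points lower at an adjusted p under 0.05 (limma), open points were not called, and Col12a1 and Col8a1 lie farthest to the right in both panels.

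Fibrillar collagens. The chains of the main fibre, type I, gave no call in either tumour type. Col1a1 ranged from 10.43 to 12.68 with a median of 11.13 in Rb/p53 tumours and was 12.56, 10.56 and 11.73 in p53 tumours, against 11.78, 11.29, 11.90, 11.25 and 11.05 in normal tissue. Col1a2 ranged from 10.13 to 12.59 with a median of 11.72 in Rb/p53 tumours and was 12.26, 10.47 and 11.62 in p53 tumours, against 11.61, 11.25, 11.65, 11.12 and 11.00 in normal tissue. For both genes the tumours lay above, among and below the normal samples. The log2 difference of Col1a1 was -0.07 ± 0.37 in Rb/p53 tumours (SE, adjusted p = 0.933 by limma) and 0.16 ± 0.49 in p53 tumours (adjusted p = 0.833). That of Col1a2 was 0.34 ± 0.33 and 0.12 ± 0.43 (adjusted p = 0.518 and 0.856). Without p53 replicate 2 the p53 tumours gave 0.69 for Col1a1 and 0.61 for Col1a2, also not called (adjusted p = 0.397 and 0.378).

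Col3a1, whose chain forms fibrils with type I in pliable tissue, was lower in Rb/p53 tumours. It ranged from 9.70 to 11.28 with a median of 10.10 there, against 11.42, 11.15, 11.67, 10.98 and 10.84 in normal tissue. MMTV-Cre replicate 1 and Ad-Cre replicate 2 lay within the normal range and the other Rb/p53 tumours below it. The difference was -0.81 ± 0.29 (adjusted p = 0.0433 by limma), and the call was lost in 12 of 26 alternative settings, 10 of them fits that left out 1 array. In p53 tumours Col3a1 was 11.77, 10.20 and 10.64, a difference of -0.35 ± 0.38 that was not called (adjusted p = 0.529). This value rested on single arrays, since it was -0.01 when p53 replicate 2 was left out (adjusted p = 0.991) and -0.80 when replicate 1 was. Col5a2, a chain of the type V collagen found inside type I fibrils, ranged from 8.35 to 10.87 in Rb/p53 tumours and was 10.07, 8.98 and 9.51 in p53 tumours, against 8.98 to 9.22 in normal tissue. Its tumour values overlapped those of normal tissue and reached far above them, and the differences of 0.47 ± 0.34 and 0.45 ± 0.45 were not called (adjusted p = 0.357 and 0.491), nor was the 0.72 of p53 tumours without replicate 2 (adjusted p = 0.376).

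Col24a1 was the only fibrillar gene called in p53 tumours. It was 7.93, 8.26 and 7.60 there, against 7.52, 7.38, 7.27, 7.46 and 7.50 in normal tissue. All 3 tumours lay above all normal samples, with p53 replicate 2 the highest. The difference was 0.51 ± 0.12 (adjusted p = 0.00562), and 0.34 without p53 replicate 2 (adjusted p = 0.0241). When the fit held only the p53 and normal arrays the call was lost (adjusted p = 0.0625). In Rb/p53 tumours Col24a1 ranged from 7.43 to 7.69 and its difference of 0.12 ± 0.09 was not called. The remaining fibrillar genes, Col2a1, Col5a1, Col5a3, Col11a1, Col11a2 and Col27a1, were not called in either tumour type, with differences of -0.26 to 0.25 in Rb/p53 tumours and 0.06 to 0.22 in p53 tumours. The median of the 11 fibrillar differences was -0.05 in Rb/p53 and 0.15 in p53 tumours.

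**Figure D2:**
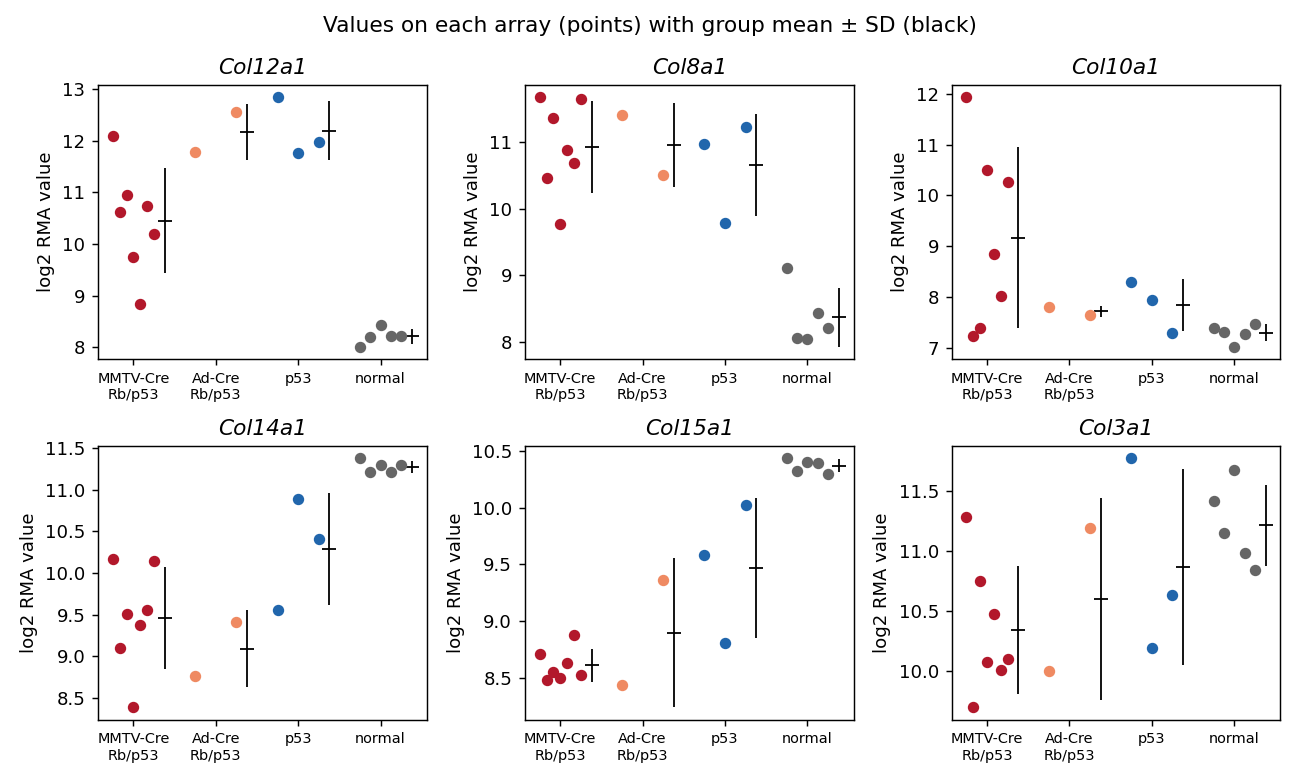
Log2 RMA value (y axis) on every array for 6 collagen genes in MMTV-Cre Rb/p53 (n = 7), Ad-Cre Rb/p53 (n = 2), p53 (n = 3) and normal samples (n = 5), with the mean ± SD of each group in black. For Col12a1 and Col8a1 all tumours lie above all normal samples, for Col14a1 and Col15a1 all lie below, and Col10a1 spreads from 7.24 to 11.93 among the MMTV-Cre tumours.

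Basement membrane collagens. Col4a1 and Col4a2 encode the chains of the type IV network present in nearly all basement membranes. Col4a3 to Col4a6 encode the chains of more specialised membranes. Each of the pairs Col4a1 and Col4a2, and Col4a5 and Col4a6, is transcribed in opposite directions from neighbouring starts, and their promoters are shown because the partners' values are set against each other below. The sequences are from RefSeq on GRCm38.p6 and run from 250 bases before to 50 bases after the annotated start, 5′ to 3′ on the strand of each gene. The windows are chr8:11312777-11313076 on the minus strand for Col4a1, chr8:11312555-11312854 on the plus strand for Col4a2, chrX:141475169-141475468 on the plus strand for Col4a5 and chrX:141474027-141474326 on the minus strand for Col4a6. Capitals mark the GC box (GGGCGG) and the CCAAT box (CCAAT), each searched on both strands.
Col4a1: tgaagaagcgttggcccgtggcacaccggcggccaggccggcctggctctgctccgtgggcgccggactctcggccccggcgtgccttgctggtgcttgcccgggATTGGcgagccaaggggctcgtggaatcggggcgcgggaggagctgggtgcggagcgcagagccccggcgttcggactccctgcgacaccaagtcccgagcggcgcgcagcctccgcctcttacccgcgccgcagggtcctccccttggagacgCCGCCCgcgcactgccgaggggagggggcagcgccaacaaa
Col4a2: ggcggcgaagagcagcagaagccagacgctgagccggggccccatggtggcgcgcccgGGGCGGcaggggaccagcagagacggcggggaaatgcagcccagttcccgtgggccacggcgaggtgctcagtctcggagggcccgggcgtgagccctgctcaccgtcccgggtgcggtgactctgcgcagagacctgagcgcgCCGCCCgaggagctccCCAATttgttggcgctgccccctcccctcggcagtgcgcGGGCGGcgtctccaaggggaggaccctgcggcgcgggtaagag
Col4a5: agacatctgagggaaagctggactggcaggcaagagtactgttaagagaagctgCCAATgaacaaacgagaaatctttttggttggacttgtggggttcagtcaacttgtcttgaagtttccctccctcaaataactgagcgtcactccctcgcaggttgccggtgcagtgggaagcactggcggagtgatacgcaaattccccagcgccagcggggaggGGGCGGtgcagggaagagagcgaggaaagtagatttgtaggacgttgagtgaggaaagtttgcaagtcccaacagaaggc
Col4a6: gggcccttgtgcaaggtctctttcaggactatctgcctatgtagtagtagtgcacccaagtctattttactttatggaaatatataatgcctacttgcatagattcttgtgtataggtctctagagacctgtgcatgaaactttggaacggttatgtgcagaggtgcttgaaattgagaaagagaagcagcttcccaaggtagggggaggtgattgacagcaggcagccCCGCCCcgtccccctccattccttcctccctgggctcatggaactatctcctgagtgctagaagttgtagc
The Col4a1 and Col4a2 starts lie 21 bases apart and their windows share 78 bases, with 1 GC box match at the same bases in both. The Col4a5 and Col4a6 starts lie 1343 bases apart and their windows share 0 bases. The Col4a2 window held 3 GC box matches and the other 3 windows 1 each. A CCAAT box was found once in each window other than that of Col4a6, and a TATA box (TATAAA) in none of the 4. Of 32851 mouse promoter windows of this length 35.7% held the GC box, 37.4% the CCAAT box and 13.6% the TATA box. Of the 37 windows listed for 34 collagen genes, 23 held the GC box, 12 the CCAAT box and 4 the TATA box.

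Col4a1 was called lower in Rb/p53 tumours. It ranged from 9.13 to 9.87 with a median of 9.46 in the tumours, against 9.95, 9.97, 10.16, 9.92 and 9.82 in normal tissue. MMTV-Cre replicate 5 alone lay within the normal range. The difference was -0.53 ± 0.16 (adjusted p = 0.0173 by limma), and its call was lost in 3 of 26 alternatives. Among them were the fit without normal replicate 3 (-0.48, adjusted p = 0.0519) and that with only the Rb/p53 tumours that were no transplants (-0.65, adjusted p = 0.155). Col4a2 ranged from 9.10 to 9.91 with a median of 9.43, against 9.88, 9.80, 10.04, 9.68 and 9.58 in normal tissue. MMTV-Cre replicates 5 and 6 lay within the normal range, and the difference of -0.39 ± 0.16 was not called (adjusted p = 0.0894). It was called without p53 replicate 2 in the fit (adjusted p = 0.0376 by limma) and with only the arrays compared (0.0407). The same held for array weights (0.0442), quantile normalisation (0.0330), cyclic loess (0.0162) and the fit without MMTV-Cre replicate 5 (0.0413). The other alternatives gave no call.

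In p53 tumours Col4a1 was 10.15, 8.997 and 9.56 and Col4a2 9.76, 8.78 and 9.47, with replicate 2 the lowest for both. The differences of -0.40 ± 0.21 and -0.46 ± 0.21 were not called (adjusted p = 0.177 and 0.135). Both were called without p53 replicate 1 (-0.68, adjusted p = 0.0208, and -0.67, adjusted p = 0.0491), and without p53 replicate 2 they were -0.11 and -0.18 (adjusted p = 0.756 and 0.611). The differences of Col4a3, Col4a4, Col4a5 and Col4a6 ran from -0.12 to 0.36 in Rb/p53 tumours and from -0.16 to 0.13 in p53 tumours, with no call.

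FACIT collagens. Col12a1 ranged from 8.83 to 12.55 with a median of 10.74 in Rb/p53 tumours and was 12.84, 11.76 and 11.98 in p53 tumours, against 8.01, 8.19, 8.42, 8.22 and 8.21 in normal tissue. Every tumour lay above every normal sample, with the lowest, MMTV-Cre replicate 5, closest to them. The log2 difference was 2.62 ± 0.47 in Rb/p53 tumours (adjusted p = 0.000508 by limma) and 3.98 ± 0.62 in p53 tumours (adjusted p = 0.000205). Both calls were kept in all alternatives run, with differences of 2.24 to 3.14 and of 3.66 to 4.29.

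Col14a1 ranged from 8.38 to 10.16 with a median of 9.41 in Rb/p53 tumours and was 9.56, 10.89 and 10.41 in p53 tumours, against 11.38, 11.21, 11.30, 11.21 and 11.30 in normal tissue. Again the groups did not overlap, here with every tumour below every normal sample. The difference in Rb/p53 tumours was -1.90 ± 0.26 (adjusted p = 4.26e-05) and kept its call in all 26 alternatives. In p53 tumours it was -0.99 ± 0.35 and missed the threshold (adjusted p = 0.0516), while without p53 replicate 2 it was -1.30 and called (adjusted p = 0.0221). Col9a2 and Col9a3, which encode chains of the type IX collagen of cartilage fibrils, were lower in Rb/p53 tumours by small amounts. Col9a2 ranged from 8.01 to 8.38 in the tumours, against 8.49 to 8.74 in normal tissue, and Col9a3 from 8.39 to 8.81, against 8.90 to 9.12. Neither overlapped, and the differences were -0.41 ± 0.10 and -0.39 ± 0.10 (adjusted p = 0.00613 and 0.0058). The remaining FACIT genes, Col9a1, Col16a1, Col19a1, Col20a1 and Col22a1, were not called in either tumour type, with differences of -0.13 to 0.26.

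Other collagens. Col8a1 ranged from 9.77 to 11.67 with a median of 10.88 in Rb/p53 tumours and was 10.98, 9.79 and 11.22 in p53 tumours, against 9.10, 8.05, 8.04, 8.44 and 8.21 in normal tissue. Every tumour lay above every normal sample, of which replicate 1 was the highest. The difference was 2.56 ± 0.32 in Rb/p53 tumours (adjusted p = 1.15e-05) and 2.29 ± 0.41 in p53 tumours (adjusted p = 0.000789), and both calls were kept in all alternatives run. Its partner in type VIII collagen, Col8a2, was not called in either, at 0.04 ± 0.10 and 0.08 ± 0.13.

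Col15a1 and Col18a1 encode related chains of basement membrane zones, which carry heparan or chondroitin sulphate. Col15a1 ranged from 8.43 to 9.36 with a median of 8.55 in Rb/p53 tumours and was 9.58, 8.81 and 10.02 in p53 tumours, against 10.44, 10.32, 10.40, 10.40 and 10.30 in normal tissue. No tumour reached the normal range, and Ad-Cre replicate 2 was the highest of the Rb/p53 tumours. The difference was -1.69 ± 0.17 in Rb/p53 tumours (adjusted p = 1.15e-06), kept in all 26 alternatives. In p53 tumours it was -0.90 ± 0.22 (adjusted p = 0.00886), and without p53 replicate 2 it was -0.57 and not called (adjusted p = 0.0525).

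Col18a1 ranged from 8.69 to 9.73 with a median of 9.40 in Rb/p53 tumours and was 10.16, 8.17 and 9.43 in p53 tumours, against 8.76, 8.94, 8.85, 8.85 and 9.04 in normal tissue. Its tumour values lay on both sides of the normal ones. The differences of 0.32 ± 0.26 and 0.37 ± 0.34 were not called (adjusted p = 0.411 and 0.45), and without p53 replicate 2 the p53 tumours gave 0.91 (adjusted p = 0.0306).

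Type VI collagen forms beaded filaments near cell surfaces. Col6a1 ranged from 10.58 to 11.41 with a median of 11.14 in Rb/p53 tumours and was 11.10, 9.15 and 10.85 in p53 tumours, against 10.69, 10.62, 10.61, 10.42 and 10.41 in normal tissue. All Rb/p53 tumours other than Ad-Cre replicate 2 lay above the normal samples, and p53 replicate 2 far below them. The difference in Rb/p53 tumours was 0.51 ± 0.23 and not called (adjusted p = 0.125), but it was called when p53 replicate 2 was left out of the shared estimate of spread (adjusted p = 0.00388). In p53 tumours it was -0.19 ± 0.31, and 0.42 without replicate 2, with no call in either case (adjusted p = 0.687 and 0.117).

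Col6a2 ranged from 10.22 to 11.14 in Rb/p53 tumours and was 10.79, 9.23 and 10.76 in p53 tumours, against 10.59 to 10.80 in normal tissue. It lay on both sides of the normal values, and neither difference was called (0.07 ± 0.21 and -0.40 ± 0.28, adjusted p = 0.877 and 0.306). Without p53 replicate 2 the sign in p53 tumours turned, to 0.11 (adjusted p = 0.750). Col6a5, Col6a6 and Col13a1, the last a chain that spans the cell membrane, were called lower in Rb/p53 tumours by small amounts. Col6a5 was -0.35 ± 0.10, Col6a6 -0.32 ± 0.09 and Col13a1 -0.26 ± 0.08 (adjusted p = 0.0113, 0.0101 and 0.0232), and of these Col6a5 alone had groups that did not overlap. Col6a5 and Col6a6 each had 2 probe sets, and with their mean in place of the brighter one the differences were -0.77 and -0.53, both called. The call of Col13a1 was lost in 7 of 26 alternatives. The remaining genes of this class, Col6a3, Col6a4, Col7a1, Col23a1, Col25a1, Col26a1 and Col28a1, were not called in either tumour type, with differences of -0.20 to 0.25.

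**Figure D3:**
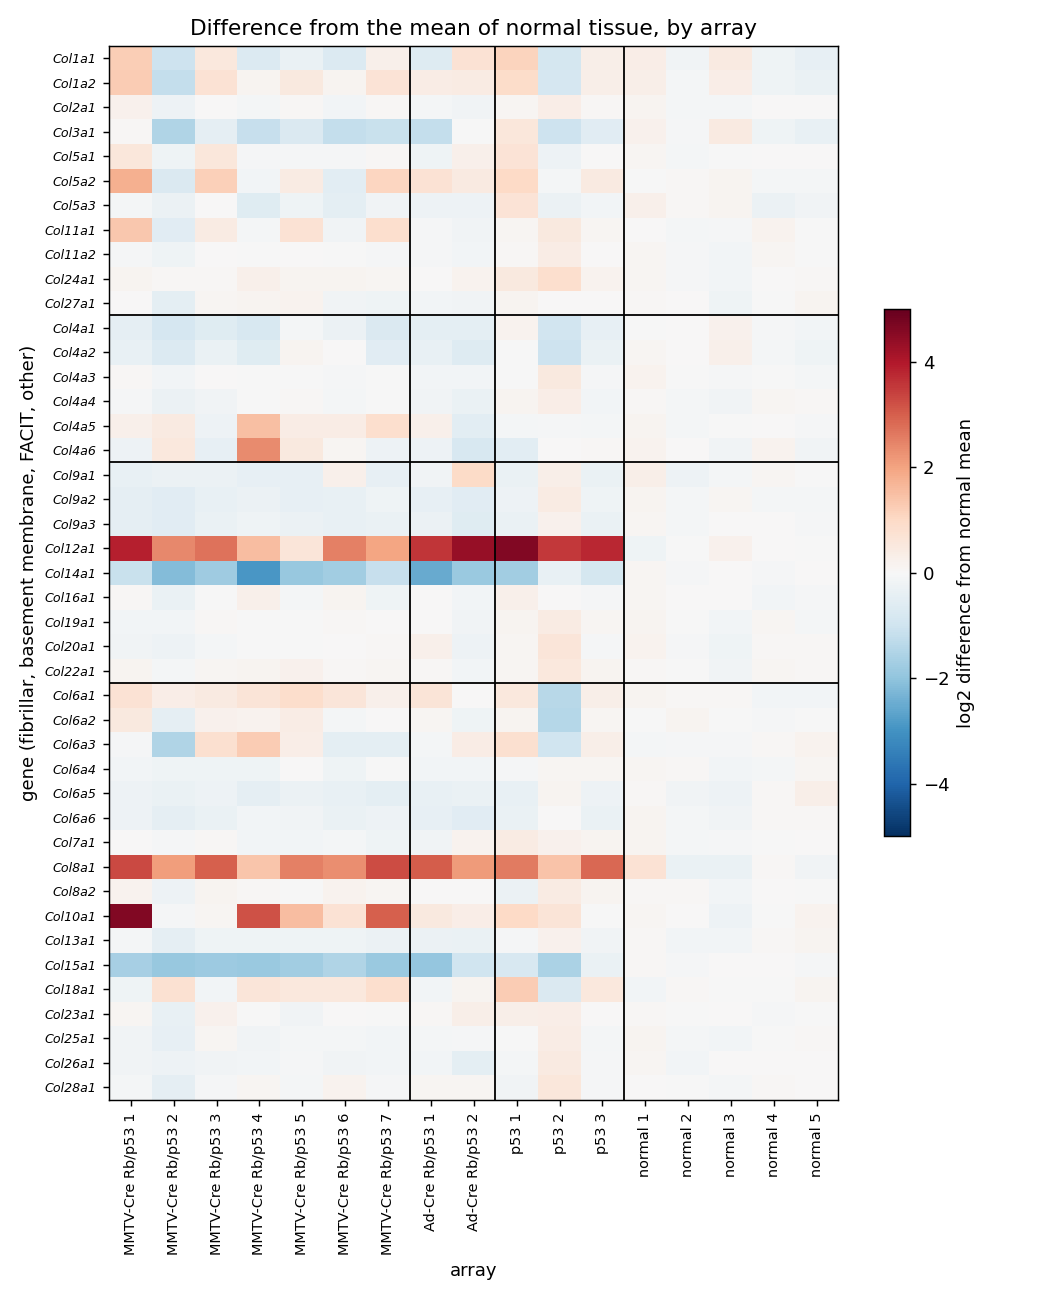
Log2 difference of each array from the mean of the normal samples (colour, scale on the right) for the 43 collagen genes (rows, in class order) on the 17 arrays (columns: MMTV-Cre and Ad-Cre Rb/p53, p53, normal). Col12a1 and Col8a1 lie on the red side of the scale in every tumour and Col14a1 and Col15a1 on the blue side, though some of these cells are close to white. Col10a1 is red in a few MMTV-Cre tumours.

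The Rb/p53 tumours differed among themselves most in Col10a1, the collagen of hypertrophic cartilage. It was 11.93, 7.24, 7.39, 10.49, 8.84, 8.02 and 10.27 in MMTV-Cre Rb/p53 replicates 1 to 7, 7.79 and 7.64 in Ad-Cre Rb/p53 tumours and 8.30, 7.95 and 7.28 in p53 tumours, against 7.38, 7.32, 7.02, 7.28 and 7.46 in normal tissue. MMTV-Cre replicates 1, 4 and 7 lay well above all other samples, while replicates 2 and 3 lay within the normal range. The SD over the 9 Rb/p53 tumours was 1.67, against 0.17 in normal tissue, and the difference of 1.56 ± 0.65 was not called (adjusted p = 0.0894 by limma). Of 6 measured cartilage and bone markers only Acan, which encodes the cartilage proteoglycan aggrecan, was called in Rb/p53 tumours (3.14 higher, adjusted p = 0.000266). The others differed by -0.10 (Sp7) to 0.22 (Sox9), and in p53 tumours 1 of the 6 was called higher. The bone marker Ibsp stayed below 6.37 on all Rb/p53 and normal arrays. The log2 of the summed level of the 6 markers was 10.74 to 12.91 in Rb/p53 tumours and 9.50 to 11.32 in p53 tumours. In normal tissue it was 10.91 to 11.42, and its part in the Col10a1 values was not tested.

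Col12a1 had the next largest spread among Rb/p53 tumours (SD 1.18), followed by Col4a6 (0.93), Col5a2 (0.83) and Col6a3 (0.82). An SD above 1 was found for 2 of the 43 collagen genes (4.65%) and for 2.10% of all genes. The median SD of the collagen genes was 0.195 in Rb/p53 tumours and 0.117 in normal tissue. Over all genes it was 0.194 in Rb/p53 tumours and 0.149 in normal tissue. In normal tissue no collagen gene exceeded 0.44. Col4a6 owed its spread to MMTV-Cre replicate 4, at 10.12, with the next tumour at 8.29 and the lowest at 6.95.

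The genotypes of the tumours were then compared with each other on the 12 tumour arrays. By limma none of the 43 collagen genes was called between Rb/p53 and p53 tumours, and 10 had an unadjusted p under 0.05. Among all genes 1 was called (0.00502%) and 4117 had an unadjusted p under 0.05. The 3 genes with the smallest p were lower in the Rb/p53 group mean. Col15a1 had a mean of 8.67 ± 0.29 in Rb/p53 and 9.47 ± 0.61 in p53 tumours (SD), a difference of -0.79 ± 0.24 (adjusted p = 0.157). Col24a1 had means of 7.55 ± 0.08 and 7.93 ± 0.33, a difference of -0.38 ± 0.12 (adjusted p = 0.163). Col7a1, the chain of the anchoring fibrils under epithelia, had means of 8.47 ± 0.13 and 8.77 ± 0.13, a difference of -0.31 ± 0.10 (adjusted p = 0.173).

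All of these groups overlapped. The larger difference of Col12a1, -1.36 ± 0.65, was not called (adjusted p = 0.249), and neither was that of Col14a1, -0.91 ± 0.36 (adjusted p = 0.21), both with p53 replicate 2 included. The median difference was -0.19 over the collagen genes and -0.03 over all genes. Without p53 replicate 3, whose title disagrees with its other labels, Col24a1 was called lower (-0.55, adjusted p = 0.0221). Without p53 replicate 2, the array that stood apart, it was -0.22 and not called (adjusted p = 0.593). Col15a1 was -0.52 without p53 replicate 3 and -1.13 without p53 replicate 2, called in neither case. Of the Rb/p53 tumours 7 were transplants and no p53 tumour was labelled as one. With only the 2 other Rb/p53 tumours none of the 43 genes was called, although Col15a1 still differed by -0.87 (adjusted p = 0.823 by limma). Arrays were too few in that fit for the lack of calls to bear on transplantation.

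Within the Rb/p53 tumours, those made with Ad-Cre were compared with those made with MMTV-Cre. No collagen gene was called, 2 had an unadjusted p under 0.05, and among all genes 1 was called (0.00502%) and 412 had such a p. Col12a1 was 11.79 and 12.55 in the Ad-Cre tumours, against 8.83 to 12.10 with a median of 10.61 in the MMTV-Cre tumours. MMTV-Cre replicate 1, which was not labelled as a transplant, alone of its group lay between the Ad-Cre values. Both Ad-Cre tumours were transplants, and the 5 transplanted MMTV-Cre tumours ranged from 8.83 to 10.94. The difference between the Ad-Cre and all MMTV-Cre tumours was 1.72 ± 0.64 (adjusted p = 0.9999 by limma). Col9a1 was 8.27 and 9.39, against 8.02 to 8.70, a difference of 0.67 ± 0.28 that Ad-Cre replicate 2 largely made, since it was 0.11 without that array. Col4a5 was 8.19 and 7.40, against 7.69 to 9.42, a difference of -0.63 ± 0.35 that was -0.24 without Ad-Cre replicate 2 and -1.03 without Ad-Cre replicate 1. The groups overlapped for both, and their adjusted p was the same as for Col12a1.

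Transplanted MMTV-Cre Rb/p53 tumours (n = 5) were compared with the other MMTV-Cre Rb/p53 tumours (n = 2). No collagen gene was called and none had an unadjusted p under 0.05. Among all genes 5 were called (0.0251%) and 1579 had such a p. Col28a1 was 6.97, 7.10, 6.93, 7.19 and 6.95 in transplanted tumours, against 6.92 and 6.57. Col20a1 was 7.82, 7.88, 7.92, 7.95 and 7.98, against 7.76 and 7.68, and Col9a3 8.67, 8.81, 8.70, 8.63 and 8.67, against 8.57 and 8.43. Over the 43 genes the differences ran from -1.26 for Col12a1 (means of 10.09 and 11.35) to 1.08. The groups did not overlap for the 3 genes with the smallest p, Col28a1, Col20a1 and Col9a3. With only 2 tumours in 1 group, and genes picked by their p, this says little. The differences of these 3 were 0.29 ± 0.13, 0.19 ± 0.08 and 0.20 ± 0.09 (adjusted p = 0.628 for each by limma). Leaving out 1 of the 2 other tumours moved them. Without replicate 2 they were 0.11, 0.15 and 0.13, and without replicate 1 0.46, 0.22 and 0.27.

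Chains that assemble together, or whose genes are neighbours, were followed across the 9 Rb/p53 tumours in 6 pairs, with exact two-sided permutation tests adjusted over the 6. Col4a1 and Col4a2, whose promoters overlap as shown above, gave Pearson's r = 0.90 (p = 0.00134, adjusted p = 0.00802) and Spearman's rho = 0.80 (p = 0.0138, adjusted p = 0.0258). MMTV-Cre replicates 5 and 6 were high and replicates 2 and 4 low for both, and r was 0.77 without the 2 tumours farthest from the Col4a1 median. Col1a1 and Col1a2, the partners in type I collagen, gave r = 0.78 (p = 0.00557, adjusted p = 0.0123) and rho = 0.90 (p = 0.00203, adjusted p = 0.0122), and r = 0.77 without such tumours. Col6a1 and Col6a2 gave r = 0.74 (p = 0.0218, adjusted p = 0.0327) and rho = 0.78 (p = 0.0172, adjusted p = 0.0258), and r = 0.81 without such tumours.

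Col4a5 and Col4a6 gave r = 0.83 (exact permutation p = 0.00616, adjusted p = 0.0123) and rho = 0.82 (p = 0.0108, adjusted p = 0.0258). This r rested on MMTV-Cre replicate 4, the highest for both genes, and Ad-Cre replicate 2, the lowest for both, because it was 0.28 without them (exact permutation p = 0.549). Col3a1 and Col5a2 (r = 0.68, p = 0.0478, adjusted p = 0.0574; rho = 0.70, p = 0.0433, adjusted p = 0.0519) did not pass the adjusted threshold in the same exact permutation test. Col4a3 and Col4a4 did not either (r = 0.65, p = 0.0591, adjusted p = 0.0591; rho = 0.58, p = 0.108, adjusted p = 0.108). Among the 7 transplanted Rb/p53 tumours alone, r was 0.88 for Col4a1 and Col4a2, 0.84 for Col4a5 and Col4a6 (exact adjusted p = 0.0405 for each), 0.69 for Col1a1 and Col1a2 (exact adjusted p = 0.154) and 0.79 for Col6a1 and Col6a2 (exact adjusted p = 0.0651). The 2 tumours that were no transplants were too few for a value of their own.

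**Figure D4:**
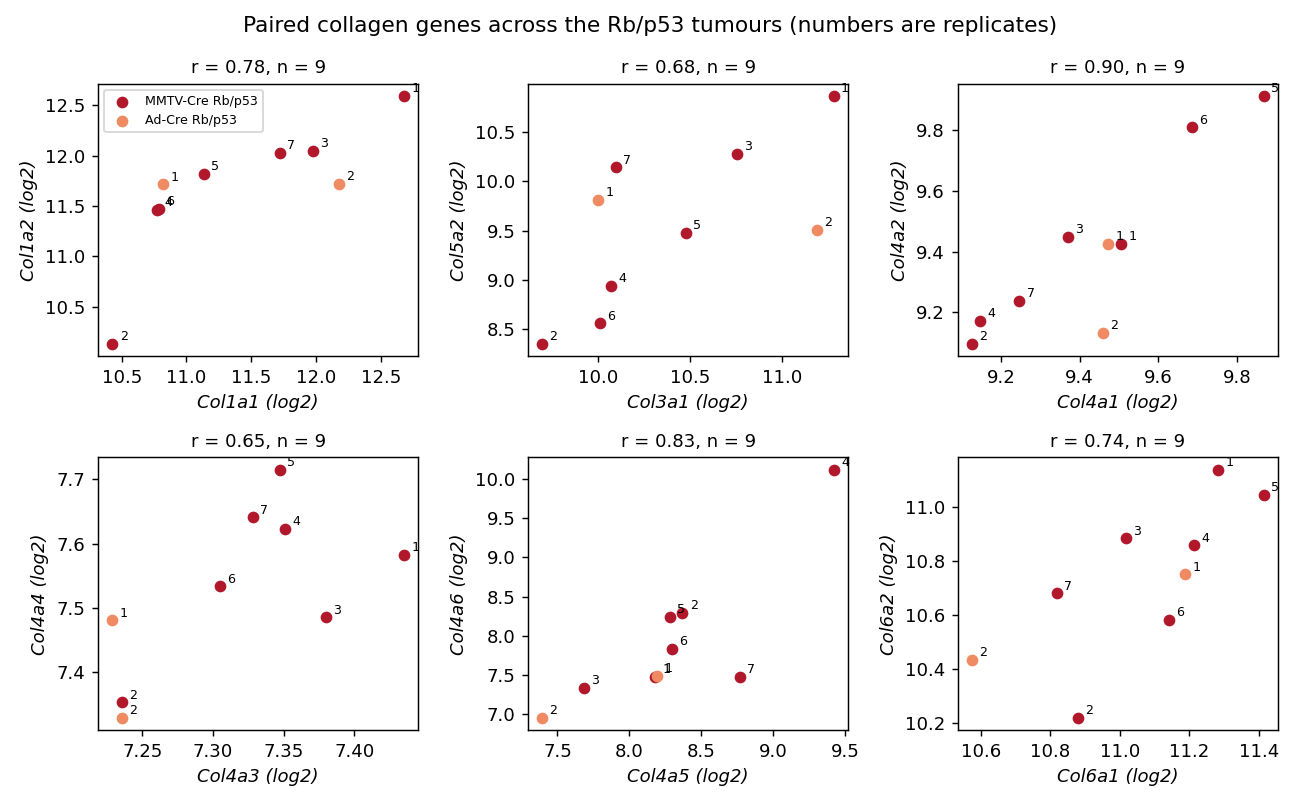
Log2 RMA values of the second gene (y axis) against the first (x axis) in 6 pairs of collagen genes, with 1 point for each of the 9 Rb/p53 tumours, numbered by replicate. The points for Col4a1 and Col4a2 climb together (r = 0.90), and in the panel of Col4a5 and Col4a6 MMTV-Cre replicate 4 lies far to the upper right.

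Newly made collagen chains are hydroxylated and glycosylated, folded with the help of chaperones, secreted, trimmed of their propeptides and cross-linked. Of 17 measured collagen-modifying enzymes and chaperones 10 were higher and 2 lower in Rb/p53 tumours, and 6 higher and 2 lower in p53 tumours. Here and for the lists that follow, 14.2% of all genes were called higher and 13.4% lower in Rb/p53 tumours, and 8.34% higher and 12.1% lower in p53 tumours. The median log2 differences of the enzymes and chaperones were 0.66 in Rb/p53 and 0.24 in p53 tumours, beside 0.03 and 0.09 over all genes. P4ha3, a catalytic subunit of prolyl hydroxylase, averaged 10.06 in Rb/p53 tumours and 7.89 in normal tissue (2.17 ± 0.42, adjusted p = 0.00102 by limma), a call lost with only the 2 Rb/p53 tumours that were no transplants (1.45, adjusted p = 0.162). Plod2, which hydroxylates lysines that are later cross-linked, differed by 1.70 ± 0.33 in Rb/p53 tumours and by 1.46 ± 0.43 in p53 tumours (adjusted p = 0.000842 and 0.0229), and by 2.28 in p53 tumours without replicate 2. P4ha1, the catalytic subunit in most tissues, was higher by 1.34 ± 0.20 in Rb/p53 tumours and by 1.09 ± 0.26 in p53 tumours (adjusted p = 9.53e-05 and 0.00747).

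In the other direction P3h2, a prolyl hydroxylase of basement membrane collagen, was lower by -1.21 ± 0.38 in Rb/p53 tumours and by -2.20 ± 0.50 in p53 tumours (adjusted p = 0.0242 and 0.0046). Colgalt2, which adds galactose to hydroxylysine, was lower by -0.79 ± 0.15 and -0.81 ± 0.19 (adjusted p = 0.000633 and 0.00641). The calls of Plod2 and P4ha1 in p53 tumours were lost without p53 replicate 1 (0.87, adjusted p = 0.131, and 0.78, adjusted p = 0.0512), and the 6 higher enzymes became 2. That of Plod2 was lost in 5 of 17 alternatives. Among them were the fits without p53 replicate 3 (1.23, adjusted p = 0.0727 by limma) and without normal replicate 1 (1.30, adjusted p = 0.0530). The call of P3h2 in Rb/p53 tumours did not survive leaving out normal replicate 1 (adjusted p = 0.0544), 4 (0.0628) or 5 (0.0608).

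Of 12 measured genes for propeptide processing and cross-linking 5 were higher and none lower in Rb/p53 tumours (median 0.42, beside 0.03 over all genes), and none was higher and 1 lower in p53 tumours (median 0.00, beside 0.09). In Rb/p53 tumours 1 was lower without MMTV-Cre replicate 3 or 5, and in p53 tumours 3 were lower without p53 replicate 1 and 1 was higher without p53 replicate 2. Loxl3 and Lox, oxidases that start the cross-links, differed by 2.21 ± 0.33 and 1.82 ± 0.52 in Rb/p53 tumours (adjusted p = 9.82e-05 and 0.0138 by limma). Loxl3 averaged 11.18 in Rb/p53 tumours and 8.98 in normal tissue, without overlap, but with only the Rb/p53 tumours that were no transplants its difference was 1.10 and not called (adjusted p = 0.0607). Adamts3, which cuts the amino-terminal propeptide, was lower in p53 tumours by -0.93 ± 0.30 (adjusted p = 0.0377), a call lost in 8 of 17 alternatives, among them those without p53 replicate 1 or 3 or normal replicate 2, 3 or 5. Of 9 measured collagen receptors 3 were higher in Rb/p53 tumours and 2 in p53 tumours, with none lower in either. The medians were -0.19 and 0.07, and 1 receptor was lower in p53 tumours without p53 replicate 1 or 3. Lair1, an inhibitory receptor of immune cells, differed by 1.61 ± 0.36 in Rb/p53 and 2.11 ± 0.47 in p53 tumours (adjusted p = 0.00296 and 0.00434). Mrc2, an uptake receptor for collagen fragments, was higher in Rb/p53 tumours by 1.57 ± 0.31 (adjusted p = 0.00103), against 0.81 and no call with only the tumours that were no transplants (adjusted p = 0.319). Itgb1, the beta subunit of collagen-binding integrins, was higher by 0.77 ± 0.14 in Rb/p53 tumours and by 0.92 ± 0.18 in p53 tumours (adjusted p = 0.00056 and 0.00194).

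Of 10 proteoglycans that bind collagen fibrils 5 were lower in Rb/p53 tumours and 4 in p53 tumours, with none higher (median -0.97 and -1.42, beside 0.03 and 0.09 over all genes). With only the p53 and normal arrays in the fit 8 were lower in p53 tumours. Lum, which encodes lumican, ranged from 6.29 to 10.99 in Rb/p53 tumours, against 11.80 to 12.18 in normal tissue (-3.32 ± 0.61, adjusted p = 0.000626 by limma). The lowest of these tumour values was not shown to be above background. Prelp, an anchor between basement membrane and fibrils, was lower by -2.36 ± 0.42 in Rb/p53 and -3.34 ± 0.55 in p53 tumours (adjusted p = 0.00044 and 0.000339). Ogn, which encodes osteoglycin, was lower in p53 tumours by -3.50 ± 0.80 (adjusted p = 0.00525), and by -2.75 without p53 replicate 2 (adjusted p = 0.0342).

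Of 9 proteases that degrade collagen 5 were higher and 1 lower in Rb/p53 tumours, and 2 higher and 2 lower in p53 tumours (median 0.75 and 0.18). The 5 became 3 without normal replicate 5, with cyclic loess or with MMTV-Cre tumours only. Mmp13, an interstitial collagenase, ranged from 8.07 to 13.82 in Rb/p53 and from 10.53 to 13.29 in p53 tumours, against 6.61 to 6.99 in normal tissue (3.84 ± 0.83 and 5.50 ± 1.09, adjusted p = 0.00231 and 0.00169 by limma). Mmp8, the neutrophil collagenase, differed by 1.65 ± 0.42 and 2.75 ± 0.55 (adjusted p = 0.00721 and 0.00184). Its normal values of 5.64 to 6.01 and its lowest Rb/p53 value of 5.92 were not shown to be above background. Without p53 replicate 2 its difference in p53 tumours was 1.83 (adjusted p = 0.00777). Fap, a protease of fibroblasts that is also one of the fibroblast markers above, was lower by -1.88 ± 0.32 in Rb/p53 and -1.51 ± 0.42 in p53 tumours (adjusted p = 0.000298 and 0.0168). Mmp2, a gelatinase, was lower in p53 tumours by -0.75 ± 0.21 (adjusted p = 0.0200). Without p53 replicate 2 neither Fap nor Mmp2 was called in p53 tumours (-1.20, adjusted p = 0.0831, and -0.52, adjusted p = 0.111). No gene of these 5 lists was called between Rb/p53 and p53 tumours, a comparison that called 1 of all 19938 genes (0.00502%).

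**Figure D5:**
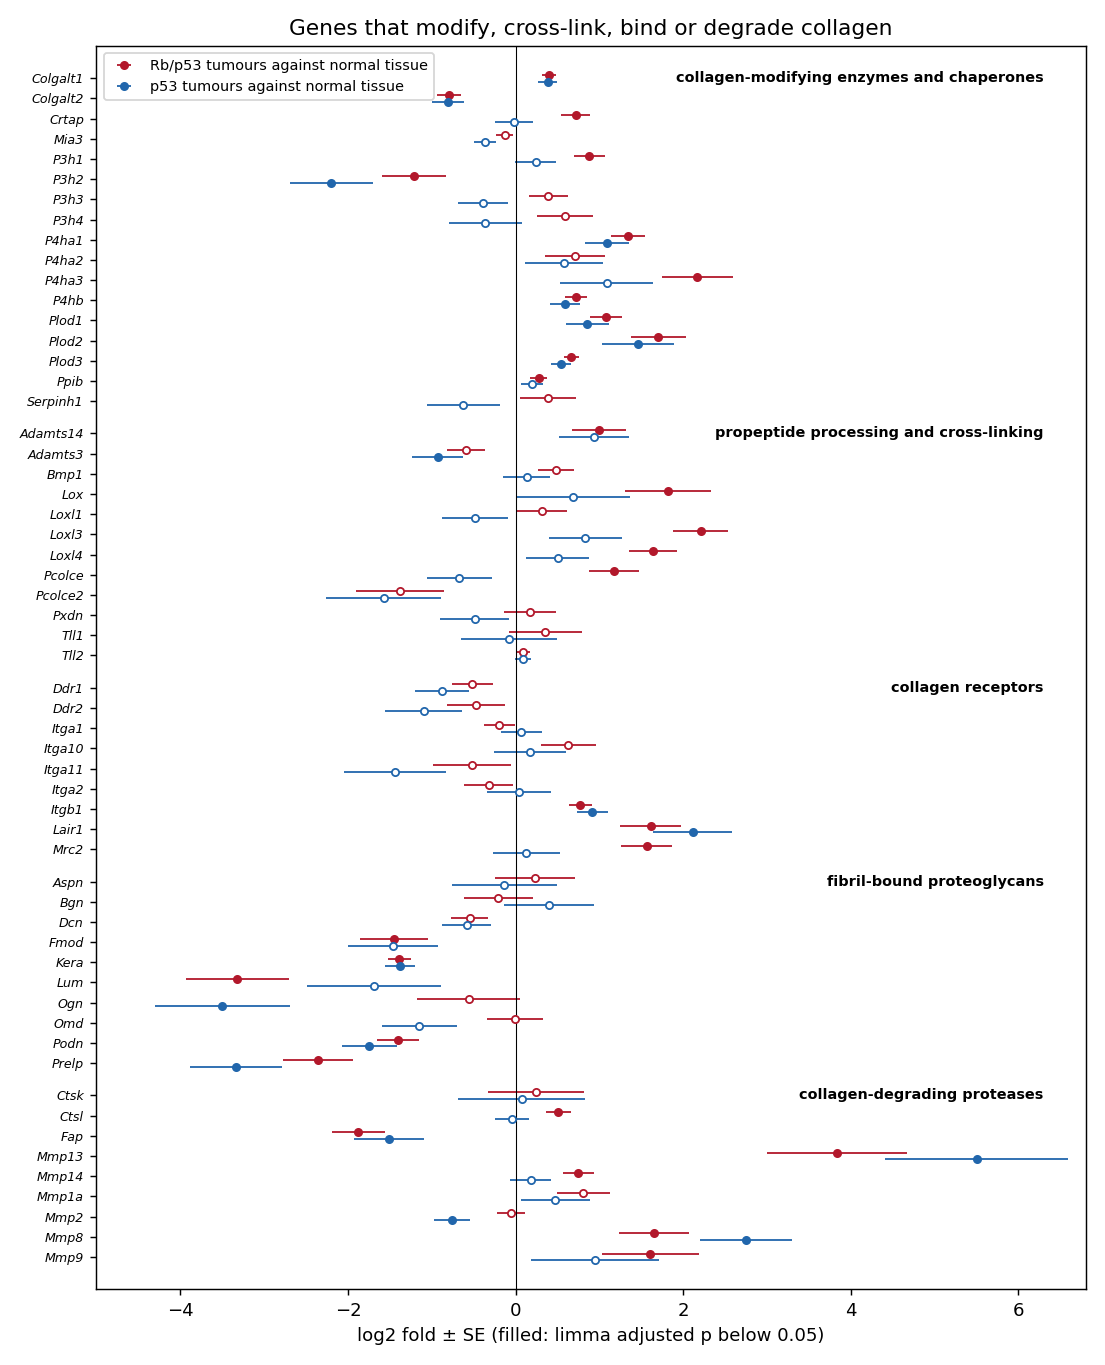
Log2 difference from normal tissue (x axis, ± SE) of genes that modify, cross-link, bind or degrade collagen (y axis, by list) in Rb/p53 tumours (red, n = 9) and p53 tumours (blue, n = 3), with filled points called at an adjusted p under 0.05. Mmp13 lies farthest to the right, and the called proteoglycans all lie to the left of 0.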

How the data were processed

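The platform was the Affymetrix Mouse Gene 1.0 ST array. The authors deposited log2 values for 35556 probe sets, made by RMA in Partek 5.6 per the submitters' processing notes, with no other setting recorded there. Only probe sets with a single gene symbol were used (21789, beside 1621 with several symbols). Each symbol was represented by its brightest probe set on average, giving 19938 genes. Of the collagen genes 2, Col6a5 and Col6a6, had 2 such probe sets, and all 43 matched the RefSeq gene table. Levels are log2 means with SD, and differences are log2 with SE. The number of arrays limits the precision.

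The tests were limma 3.58.1 (lmFit and eBayes, R 4.3.3), with p adjusted by Benjamini-Hochberg over all genes, after the scripts were tested on simulated data. The comparisons with normal tissue used all 17 arrays as 3 groups and share their normal samples, so nothing is counted between them. The other comparisons used the 12 tumour arrays or, for transplants, the 7 MMTV-Cre Rb/p53 arrays. The labels give no scan or batch. Members, lists and tests were chosen with earlier results of these data known. Full statistics were given for a set list (Col1a1, Col1a2, Col3a1, Col5a2, Col4a1, Col4a2, Col6a1, Col6a2, Col12a1, Col14a1, Col15a1 and Col18a1), for up to 3 called genes of each class with the largest change, for the 3 smallest p where none was called, and for up to 2 called genes per direction of each further list. Other genes were named after their values were seen.

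Alternatives were array weights, a robust eBayes with intensity trend, a filter that dropped genes whose mean was below the 25th percentile, cyclic loess or a second quantile normalisation, averaged probe sets per gene, a log2 difference of at least 1 as well, other sets of arrays in the fit, MMTV-Cre or non-transplanted Rb/p53 tumours only, p53 replicate 3 counted as an Rb/p53 tumour, and each array left out. Leaving p53 replicate 2 out of the shared spread was added after the data were seen.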

Additional observations from a re-analysis of the deposited data

Results flagged for a closer look

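In 7 of 86 tests of a gene within the Rb/p53 or normal group, 1 array lay far from the others by Dixon's criterion, which chance alone reaches in about 1 of 20 groups. All 7 were in the Rb/p53 tumours. MMTV-Cre Rb/p53 replicate 2 was the lowest for Col1a2 (10.13, next tumour 11.46), Col8a2 (7.17, next 7.39) and Col28a1 (6.57, next 6.92). Ad-Cre Rb/p53 replicate 2 was the highest for Col9a1 (9.39, next 8.70) and Col15a1 (9.36, next 8.88) and the lowest for Col26a1 (8.05, next 8.31). MMTV-Cre Rb/p53 replicate 4 was the highest for Col4a6 (10.12, next 8.29).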

How the results depend on the processing

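No called collagen gene changed direction in any alternative run. In Rb/p53 tumours against normal tissue the counts of 2 higher and 9 lower became 4 higher with array weights, 2 lower with a log2 difference of at least 1 as well, and 2 lower with only the 2 non-transplanted tumours. Leaving out 1 array gave 2 to 3 higher and 7 to 11 lower. With only the non-transplanted tumours Col12a1 (3.14), Col8a1 (2.70), Col14a1 (-1.65) and Col15a1 (-1.77) were still called, and the calls of P4ha3, Plod2, Colgalt2, Loxl3, Lair1, Mrc2 and Mmp8 were lost. Of these, Plod2 (1.86), Colgalt2 (-0.80) and Mmp8 (1.98) were at least as large as with all 9 tumours, whereas P4ha3 (1.45), Loxl3 (1.10), Lair1 (1.15) and Mrc2 (0.81) were smaller. In p53 tumours the 3 higher and 1 lower became 5 higher with array weights or with quantile normalisation. The lower count became 3 with array weights or the mean of probe sets, 2 without dim genes or with only the arrays compared, and 0 with a log2 difference of at least 1. Leaving out 1 array gave 3 to 4 higher and 1 to 3 lower, with 3 lower without p53 replicate 1 and 2 without p53 replicate 2. Between Rb/p53 and p53 tumours the lower count of 0 became 1 with p53 replicate 3 moved and 0 to 1 when 1 array was left out. The correlation of Col1a1 and Col1a2 was 0.69 and that of Col6a1 and Col6a2 0.79 in transplanted tumours, past the threshold in neither, and that of Col4a5 and Col4a6 fell to 0.28 without the 2 farthest tumours. Cyclic loess moved the share of higher genes among all calls in Rb/p53 tumours to 42.0%, against 51.4% as deposited. No paired analysis was possible because the labels give no replicate numbers that tie samples across groups.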
